A study of Mus musculus with 2 samples.

Results

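Nuclei carrying the transcripts of mural and renin-lineage cells were picked out of single-nucleus RNA sequencing of whole mouse kidney before birth, at embryonic stage E18.5, and after it, at postnatal day 3 (P3). A nucleus was a member when at least 3 of the 7 genes Notch3, Abcc9, Pdgfrb, Myh11, Ren1, Rgs5 and Mcam had a UMI (unique molecular identifier, the count of 1 captured RNA molecule). Notch3, Myh11 or Ren1 had to be among them, and at most 1 of the 4 endothelial genes Flt1, Ptprb, Tek and Pecam1 could have a UMI. Barcodes were first limited to 1000 to 6000 UMIs at E18.5 or 1000 to 10000 at P3, with at most 0.6% of UMIs from mitochondrial genes. At E18.5, 743 of 18673 nuclei were members, a share of 3.98% (exact binomial 95% interval 3.70 to 4.27). At P3 the count was 462 of 9289 nuclei, or 4.97% (4.54 to 5.44). They are called mural-marker nuclei here, after the rule that chose them.

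The study set out to map transcripts in the developing kidney and sequenced 1 library of nuclei at each age. The E18.5 library was made from kidneys labelled Mycf/f;Mycnf/f (no Cre), that is, with floxed Myc and Mycn alleles and no recombinase, on a mixed strain background. The P3 library was labelled wild type and C57BL/6J, although the study's methods describe a mixed background for both ages. Kidneys of males and females were pooled for each library, and the number of animals was not given in the sources used here. Age, genotype, strain and library therefore change together and cannot be told apart. With 1 library per age there is no replicate and no test, and all intervals below cover counting error only.

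Mural cells wrap the outside of blood vessels. Smooth muscle cells surround arteries and arterioles and contract, pericytes lie along capillaries, and mesangial cells hold the capillary loops of the glomerulus together. In the developing kidney these cells come largely from stromal progenitors. Renin cells belong to the same lineage: they are spread along the growing renal arteries before birth and become restricted to the arteriole at the entrance of the glomerulus, where renin release sets blood pressure and salt balance.

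The files held 21600 barcodes with 77688411 UMIs at E18.5 and 12216 barcodes with 70559806 UMIs at P3. Members had a median of 3454 UMIs (1069 to 5991) and 2083 detected genes at E18.5, against 2936 UMIs and 1882 genes in all other nuclei. At P3 the medians were 5194 UMIs (1057 to 9994) and 2492 genes, against 4275 UMIs and 2273 genes. The rule counts detected genes and so depends on depth. When each nucleus was thinned to 1000 UMIs, 0.594% of the nuclei met the rule at E18.5 and 0.409% at P3, so the order of the shares was reversed. A doublet caller marked 17.4% of members and 13.0% of other nuclei at E18.5, and 14.5% and 11% at P3. The libraries shared 69 barcodes, none of them between members of the 2 ages.

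Levels are sums of UMIs over a set of nuclei, scaled to CPM, the UMIs of a gene in every 1000000 UMIs of the set. They are compared for 1 gene between sets and never between genes, because transcripts of long genes give more UMIs in nuclei. The genes of the rule were higher in the members because the rule chose them, and their values are given as a description. Notch3, a receptor of arterial smooth muscle and pericytes (chr17:32120820-32166852, minus strand, mm10), had 358 CPM (95% Poisson interval 336 to 381) in members at E18.5 and 325 CPM (303 to 348) at P3. In other nuclei Notch3 had 52.6 and 47.1 CPM. Abcc9 encodes a regulatory subunit of ATP-sensitive potassium channels and had 493 CPM in members at E18.5 and 199 at P3, against 57.0 and 32.3 in other nuclei. Pdgfrb, the receptor that draws mural cells to vessels, had 403 and 286 CPM, and the G-protein regulator Rgs5 had 175 and 182. Myh11, the smooth muscle myosin heavy chain (chr16:14194535-14291372, minus strand), had 113 CPM at E18.5 and 231 at P3. Ren1, which encodes renin (chr1:133350510-133360325, plus strand), had 120 CPM (107 to 133) at E18.5 and 87.7 CPM (76.6 to 99.9) at P3. Mcam, an adhesion molecule that endothelium also carries, was the least distinctive of the 7. Its 84.7 and 55.3 CPM in members stood beside 62.0 and 67.3 CPM in endothelial nuclei.

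**Figure D1:**
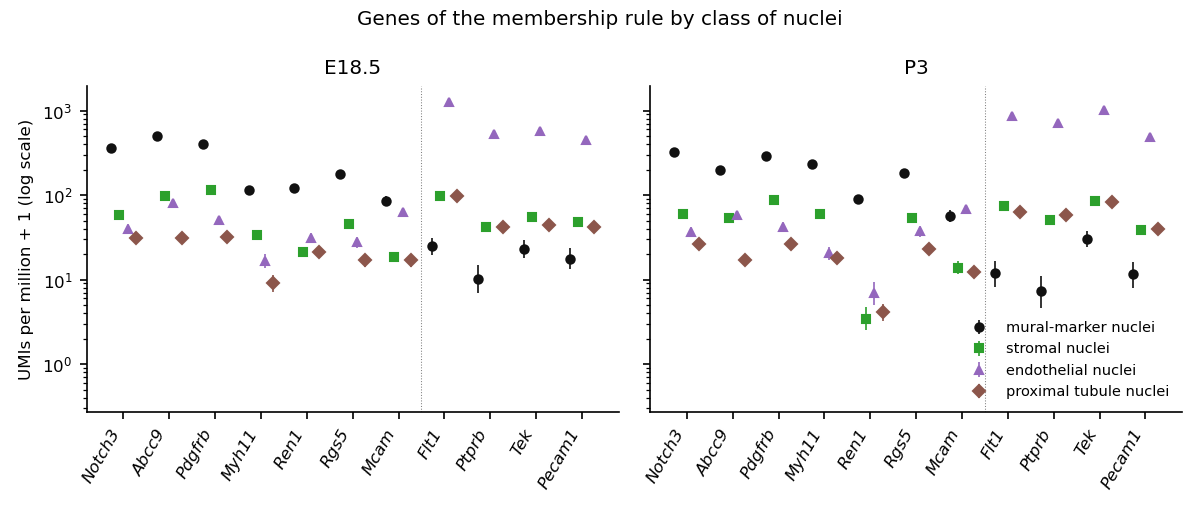
CPM plus 1 (log axis) of the 7 mural genes and, right of the dotted line, the 4 endothelial genes that the rule used, at E18.5 and P3. Points are sums over mural-marker nuclei and over stromal, endothelial and proximal tubule nuclei without them, and bars are 95% Poisson intervals: the mural genes are highest in the mural-marker nuclei by construction, except Mcam, which had 67.3 in endothelial nuclei and 55.3 in mural-marker nuclei at P3.

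Most members sat near the edge of the rule. At E18.5, 486 had exactly 3 of the 7 genes, 192 had 4, 60 had 5, and 5 had 6. At P3 these numbers were 313, 121, 24 and 4, and no nucleus at either age had all 7. Just outside, 1187 nuclei at E18.5 and 671 at P3 had 2 of the genes with Notch3, Myh11 or Ren1 among them. A further 173 and 83 nuclei had 3 or more of the genes but lacked those 3. Of the members, 423 at E18.5 and 229 at P3 had Notch3 and neither Myh11 nor Ren1.

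Detection of a UMI is no proof of expression, since free RNA in the droplets adds UMIs to every nucleus. Proximal tubule nuclei, which should lack these genes, gave the background. These shares are over all nuclei with at least 3 proximal tubule genes, those that meet the mural rule included. Notch3 had a UMI in 81.6% of members and 11.1% of proximal tubule nuclei at E18.5. Their median depths were 3454 and 3543.5 UMIs. Thinned to 1000 UMIs per nucleus, with no nucleus left out, these shares were 32.0% and 4.04%. At P3 the shares were 82.0% and 13.4% unthinned, and 29.9% and 3.41% thinned. The whole rule was met by 2.47% of proximal tubule nuclei at E18.5 and 3.45% at P3, and by 2.31% and 2.48% of podocyte nuclei. Among endothelial nuclei 0.685% and 0.419% met it, and among stromal nuclei 7.84% and 10.1%. Stromal nuclei were defined here by a UMI of Pdgfra and of at least 2 of Col1a1, Col1a2, Col3a1 and Dcn. Where levels are compared, members were left out of the stromal, endothelial and proximal tubule sets.

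The mural label holds for the set only in part. Transcripts of epithelial, endothelial, leukocyte and glial cells were lower in members than in other nuclei but not absent, while those of stroma were higher. The 5 proximal tubule genes summed to 350 CPM in members and 810 in other nuclei at E18.5, and to 648 and 2123 at P3. The uptake receptor Lrp2 gave the most UMIs of the sum in members, as did the genes named for the next lists. The 6 podocyte genes summed to 455 and 930 CPM at E18.5 and to 309 and 712 at P3 (Wt1). The 4 genes of the loop of Henle and distal tubule summed to 250 against 479 and to 377 against 1054 CPM (the cotransporter Slc12a1). The 5 endothelial genes outside the rule summed to 209 against 368 and to 138 against 421 CPM (Emcn). The 4 nephron progenitor genes summed to 185 against 385 and to 121 against 238 CPM (Eya1), with Cited1 at 0 in members at P3. Ureteric epithelium genes summed to 85.5 against 120 and 58.4 against 95.9 CPM, leukocyte genes to 23.4 against 49.9 and 16.4 against 88.7, and glial genes to 8.54 against 17.4 and 11.7 against 16.3. Globin and other erythroid genes were close to equal, at 742 against 894 CPM at E18.5 and 164 against 156 at P3. The stromal gene Pdgfra was higher in members, at 225 against 129 CPM at E18.5 and 210 against 107 at P3. It had a UMI in 42.5% and 47.4% of members. At P3 Col1a2 had 536 against 261 CPM and Dcn 104 against 53.0. Of the 743 and 462 members, 271 and 201 also met the stromal definition given above. How far transcripts of other cells contribute to the levels below was not tested, beyond the clusters described later.

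All genes with at least 50 CPM in members or in other nuclei were then compared after adding 5 CPM to both levels. Of 5074 genes at E18.5, 155 (3.05%) were at least 2-fold higher in members and 157 (3.09%) at least 2-fold lower. Of 4687 genes at P3, 188 (4.01%) were higher and 331 (7.06%) lower. The genes of the rule were left out of these counts. A gene can enter this comparison through members alone, where it is high, so the counts and medians over genes compared are descriptions. The median log2 ratio of all genes compared was -0.05 at E18.5 and -0.06 at P3. Ratios to the stromal nuclei alone are also given for the genes that carry each list.

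The list of pericyte and vessel tone genes had the highest median among genes compared. At E18.5, 7 of 8 genes compared were at least 2-fold higher, of 14 listed, and the median log2 ratio was 1.58. At P3, 6 of 6 were, with a median of 1.37. Some, such as Cspg4 and Kcnj8, reached 50 CPM only in members. Over all 14 listed genes the medians were 0.96 and 1.09, and at P3 that of the contractile list was higher, at 1.20. The summed cGMP list also had a slightly larger ratio than the summed pericyte list, 3.38 against 3.29 at E18.5 and 2.77 against 2.67 at P3. Ednra, the endothelin receptor that drives constriction, had 260 CPM in members and 72.3 in other nuclei at E18.5, a ratio of 3.60 (3.32 to 3.90). At P3 it had 389 and 108 CPM, a ratio of 3.59 (3.35 to 3.85). The subunits of soluble guanylyl cyclase, the receptor for nitric oxide, were each higher at both ages in sums over members. Such sums do not show whether the same nuclei held them. Gucy1a2 had 706 CPM against 182 at E18.5 and 688 against 212 at P3. Gucy1b1 had 216 against 63.5 and 171 against 63.9 CPM, and Gucy1a1 had 434 against 157 and 833 against 338. Against stromal nuclei alone these ratios were smaller: 2.02 and 1.91 for Ednra, 2.01 and 1.62 for Gucy1a2, and 1.29 and 1.12 for Gucy1a1. Ebf1, a transcription factor of stroma and mural cells, had 2397 CPM against 646 at E18.5 and 2476 against 951 at P3. Against stromal nuclei the ratios of Ebf1 were 1.88 and 1.46. Cspg4, which encodes the NG2 proteoglycan of pericytes, had 67.6 against 21.2 and 51.8 against 17.9 CPM. Kcnj8, the pore partner of Abcc9, had 54.6 CPM against 20.5 at E18.5. The capillary pericyte markers Higd1b and Vtn were hardly seen: Higd1b had 3.72 and 1.17 CPM in members, and Vtn was listed at 0 at both ages. Some listed genes were lower in members. P2ry14, the remaining gene compared before birth, had a ratio of 0.587 (0.478 to 0.715) there. Its ratio after birth was 1.07, with an interval that included 1 (0.822 to 1.37). Anpep, below the limit for the comparison, had ratios of 0.549 (0.415 to 0.712) before birth and 0.418 (0.281 to 0.601) after it.

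Downstream of guanylyl cyclase, Prkg1 encodes the cGMP-dependent kinase that relaxes smooth muscle (chr19:30564489-31765033, minus strand). It had 2464 CPM in members and 494 in other nuclei at E18.5, a ratio of 4.99 (4.86 to 5.13), and 3208 against 954 CPM at P3, a ratio of 3.36 (3.28 to 3.44). Against stromal nuclei the ratios of Prkg1 were 2.66 and 1.64. Pde5a, which breaks down cGMP, had 151 CPM against 63.0 at E18.5 and 148 against 75.7 at P3, and only the former passed 2-fold. Of the cGMP list, 2 of 5 genes compared passed at E18.5 and 1 of 5 at P3. At both ages 3 of 5 passed with at least 4 markers and 4 of 5 after thinning.

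At E18.5, 3 of 9 contractile genes compared, of 16 listed, were at least 2-fold higher in members, and the median log2 ratio was 0.73. These were Myocd, the master coactivator of smooth muscle genes, the actin-binding Cald1, and Synpo2. At P3, 6 of 10 were, with a median of 1.20: Acta2, Tagln, Mylk, Myocd, Cald1 and Myl9. Tagln, Myocd and Myl9 reached 50 CPM only in members at both ages. With no upper UMI limit 1 of 8 contractile genes passed at E18.5 and 3 of 8 at P3. The summed list had ratios of 2.03 and 2.25. Acta2, smooth muscle actin, had 122 CPM in members and 88.3 in other nuclei at E18.5 but 162 and 70.6 at P3. The ratios were 1.38 (1.23 to 1.54) and 2.29 (2.06 to 2.54). Tagln, a calponin family protein, had ratios of 1.75 and 2.89, and Myl9, the regulatory light chain of myosin, 1.72 and 2.84. Myocd had 52.4 CPM against 13.0 at E18.5, a ratio of 4.04 (3.35 to 4.85), and 53.8 CPM and a ratio of 4.15 (3.42 to 5.02) at P3. Against stromal nuclei most contractile ratios were closer to 1. Those of Acta2 were 1.08 (0.95 to 1.22) and 1.32, those of Mylk 1.04 and 1.20, and those of Synpo2 0.777 and 0.726, while those of Myocd were 1.53 and 2.08. Ldb3, a Z-disc protein gene, had 11.5 against 2.26 CPM at E18.5 and 12.1 against 1.62 at P3, below the limit for the comparison.

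Serum response factor, the partner of Myocd, binds the CArG box, an A- and T-rich run between CC and GG. RefSeq promoters, from 250 bases before to 50 after the start, were given for 13 of the 16 contractile genes, and 2 of the 13 (15.4%) held a CArG box on either strand. Of all 27025 genes with a promoter, 488 (1.81%) did. Both are shown from GRCm38.p6 with the CArG box in capitals, because they are the listed promoters in which the box was found: Myl9 at chr2:156775214-156775513, plus strand, where the box starts at base -161 from the start, and Ldb3 at chr14:34588632-34588931, minus strand, where it starts at base -35.

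Myl9: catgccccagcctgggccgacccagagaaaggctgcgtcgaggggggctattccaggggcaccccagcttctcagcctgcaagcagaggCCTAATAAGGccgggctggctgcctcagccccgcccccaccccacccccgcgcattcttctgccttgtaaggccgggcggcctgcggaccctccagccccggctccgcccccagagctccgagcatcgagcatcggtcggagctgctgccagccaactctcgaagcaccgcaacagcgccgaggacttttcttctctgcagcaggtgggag
Ldb3: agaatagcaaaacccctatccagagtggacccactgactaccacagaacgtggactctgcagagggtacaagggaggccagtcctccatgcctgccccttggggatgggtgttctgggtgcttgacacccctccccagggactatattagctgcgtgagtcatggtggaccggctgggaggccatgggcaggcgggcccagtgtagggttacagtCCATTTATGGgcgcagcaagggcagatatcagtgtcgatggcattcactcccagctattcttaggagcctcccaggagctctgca

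A match of letters is not a measured binding site. The window of Acta2 (chr19:34255324-34255623, minus strand) held no exact match, and the same box of Ldb3 lay at base -109 of a neighbouring start.

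Among listed genes outside the rule that could be compared, Trpc6 had the largest ratio. This cation channel opened by diacylglycerol (chr9:8544142-8680741, plus strand) had 72.1 CPM in members and 6.54 in other nuclei at E18.5, a ratio of 11.02 (9.20 to 13.2). At P3 it had 86.5 and 7.12 CPM, a ratio of 12.1 (10.1 to 14.5). Trpc6 reached 50 CPM only in members at both ages. Akr1b7, too low for the comparison, had a larger ratio at P3, 12.7 (7.28 to 22.0). Against stromal nuclei the ratios of Trpc6 were 9.35 and 7.97. Cacna1c, the pore of the L-type calcium channel, had ratios of 3.08 (2.89 to 3.28) and 3.205 (3.03 to 3.39). Ano1, a calcium-activated chloride channel, had ratios of 2.83 and 3.44. Against stromal nuclei these were 1.49 and 1.42 for Cacna1c and 1.74 and 1.79 for Ano1. Of the channel and calcium list, 4 of 11 genes compared were at least 2-fold higher at E18.5 and 4 of 12 at P3. Atp2a2, the calcium pump of the intracellular stores, had ratios of 0.836 and 0.799, and Slc8a1, the sodium-calcium exchanger of the plasma membrane, 1.24 and 1.03.

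Among genes tied to the renin lineage, 2 of 5 compared were at least 2-fold higher at E18.5 and 4 of 8 at P3, of 16 listed. Both ages had the angiotensin receptor Agtr1a, at 63.9 against 24.0 CPM and 134 against 62.3, and the phosphodiesterase Pde3a, at 1467 against 467 and 2104 against 751. Adcy5, a cAMP-forming enzyme, had 31.2 CPM against 8.67 at E18.5 and 69.0 against 17.6 at P3, and Agtr1b had 32.3 against 10.3 and 61.6 against 25.2. Agtr1a at E18.5, and Adcy5 and Agtr1b at P3, reached 50 CPM only in members, and with a minimum of 20 CPM 4 genes passed at both ages. At P3 the median log2 ratio of the list was 0.54, but with no upper UMI limit it was 0.07 and 2 of 7 genes passed. Akr1b7, an aldo-keto reductase that marks renin cells (chr6:34412334-34423142, plus strand), was low at 7.06 CPM against 2.52 at E18.5 and 10.1 against 0.797 at P3. Against stromal nuclei the ratios were 1.62 and 1.38 for Agtr1a, 1.53 and 1.30 for Pde3a, and 1.57 and 1.74 for Adcy5. The cAMP-responsive factor Creb1 and its coactivators Crebbp and Ep300, which act on the renin promoter, had ratios between 0.929 and 1.07 at both ages.

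The Notch pathway, which mural cells use to mature, was uneven. None of the 6 genes compared at E18.5 or the 4 at P3 was 2-fold higher. The targets Heyl and Hey2 were too low for the comparison but differed by more than counting error. Heyl had 49.8 CPM against 13.4 at E18.5 and 47.1 against 10.3 at P3, and Hey2 had 27.1 against 5.02 at E18.5 and 7.40 against 3.64 at P3. Against stromal nuclei the ratios were 3.91 and 4.35 for Heyl and 4.49 and 2.76 for Hey2. The general target Hes1 had ratios of 0.920 and 0.876, and the ligand Jag1 1.15 and 0.887.

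Mesangial, receptor, matrix and transcription factor genes were mostly below 2-fold. Fhl2 was the 1 mesangial gene at least 2-fold higher, of 5 and of 4 compared, with 415 against 145 CPM and 540 against 193. The other mesangial genes lay close to the limit at P3, where the median log2 ratio was 0.9957. Without the epithelial-led clusters described later, 3 of 5 passed at E18.5 and 4 of 4 at P3, and at P3 3 of 4 passed with doublet calls removed or with 1 CPM added. Of the receptor list, which holds neither Ednra nor Agtr1a, none of 4 genes compared passed at E18.5 and none of 3 at P3. Without the epithelial-led clusters 1 of 4 receptor genes passed at E18.5 and 2 of 4 at P3, and after thinning 1 of 5 and 2 of 5. Of 18 matrix genes, only Eln passed at E18.5, and Fn1, Fbn1, Fbln5 and Col1a2 passed at P3. With no upper UMI limit, and also after thinning, none of the 18 passed at P3. Eln, which encodes the elastin of artery walls, had 143 CPM against 42.6 at E18.5, a ratio of 3.35 (3.0002 to 3.73), and 96.2 against 45.8 at P3, a ratio of 2.10 (1.83 to 2.40). After adding 5 CPM, the P3 ratio of Eln was below 2. Its ratios to stromal nuclei were 2.33 and 1.47. Endothelial nuclei held Eln too, at 78.4 and 101 CPM. Among transcription factors Gata6, Mef2c and Zeb2 passed at E18.5, of 10 compared, and Gata6 and Zeb2 at P3, of 9. With no upper UMI limit these counts were 1 of 10 and 0 of 9. Mef2c was the only one of these with a ratio above 2 against stromal nuclei, 3.16 and 2.75. Cell cycle genes were level with other nuclei: none of 9 passed at either age, and the median log2 ratios were -0.02 and 0.12.

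**Figure D2:**
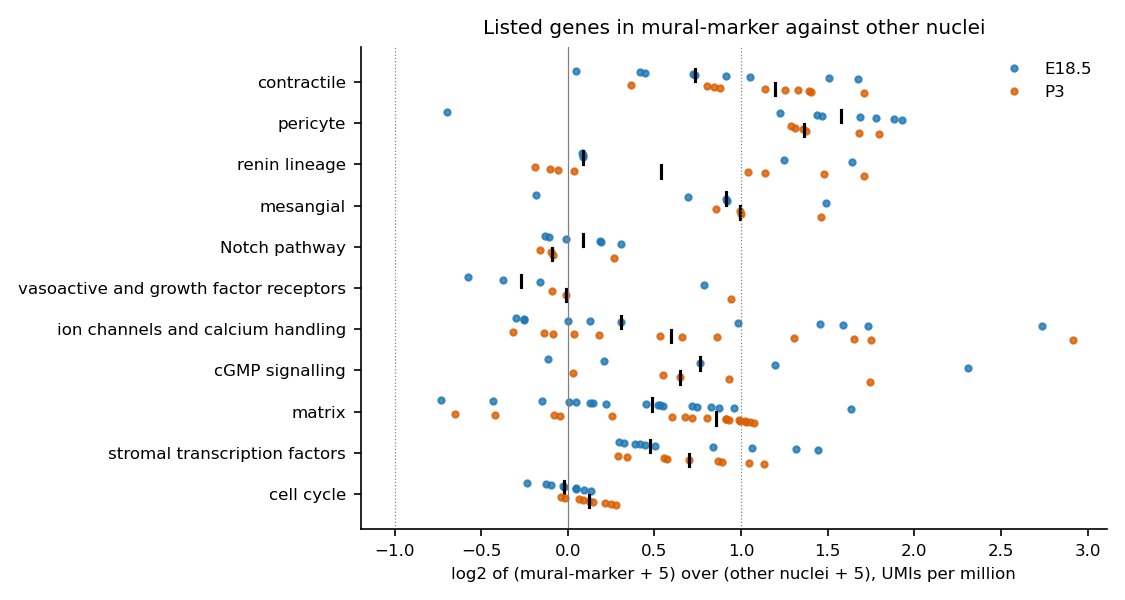
Each dot is 1 listed gene with at least 50 CPM in either set, placed by the log2 ratio of mural-marker to other nuclei after adding 5 CPM, at E18.5 (blue) and P3 (orange); black bars are list medians and dotted lines mark 2-fold. Over these genes the pericyte list has the highest medians (1.58 and 1.37), though over all listed genes the P3 contractile median (1.20) is above it (1.09), the contractile median moves from 0.73 to 1.20, and the cell cycle list lies around 0.

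Outside the lists, 10 genes were named by the lower of their ratios at both ages, among genes of at least 100 CPM in members. In order they were Dgkb, Ctnna3, Dkk2, Reln, Pld5, Carmn, Kcnab1, Ednra, Megf11 and Prkg1, so that 2 of the 10 were also on a list. Dgkb, a kinase that removes diacylglycerol (chr12:37817726-38634239, plus strand), had 247 CPM against 18.4 at E18.5, a ratio of 13.5 (12.2 to 14.9), and 235 against 22.8 at P3, a ratio of 10.3 (9.30 to 11.5). Ctnna3, alpha-T-catenin of cell contacts (chr10:63430098-65003667, plus strand), had 244 against 27.9 and 262 against 36.9 CPM. Dkk2, a secreted Wnt modulator (chr3:132085292-132180304, plus strand), had 363 against 53.2 and 382 against 55.5 CPM. Reln, the secreted glycoprotein reelin (chr5:21884454-22344702, minus strand), had 304 against 62.5 CPM at E18.5 and 145 against 18.9 at P3. Carmn, the noncoding host of a smooth muscle microRNA cluster, had 241 against 54.2 and 199 against 49.5 CPM. These genes also stood above stromal nuclei, by 7.23 and 6.44 for Dgkb, 10.9 and 9.81 for Ctnna3, 4.38 and 7.33 for Dkk2, and 3.16 and 5.21 for Reln.

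Ren1 was spread over many nuclei with 1 UMI and concentrated in a few with many. At E18.5, 195 members (26.2%) had a Ren1 UMI, of which 161 had 1, 16 had 2 and 18 had 3 or more. The highest counts were 22, 16, 13, 10 and 9 UMIs, and the 11 nuclei with 5 or more held 106 of the 322 Ren1 UMIs (32.9%). At P3, 50 members (10.8%) had a Ren1 UMI, of which 39 had 1 and 2 had 2. The other 9 all had 5 or more and held 182 of 225 Ren1 UMIs (80.9%), with highest counts of 38, 37, 37, 26 and 13. Nuclei with a single Ren1 UMI cannot be told from background. A Ren1 UMI was found in 7.42% of proximal tubule nuclei at E18.5 and 1.98% at P3, and thinned to 1000 UMIs in 2.47% and 0.713% of them against 7.81% and 4.11% of members. Of 2102 and 2523 proximal tubule nuclei, 1 at each age had 3 or more, with exact binomial upper limits of 0.265% and 0.221%. Members with 3 or more Ren1 UMIs made up 2.42% of the E18.5 set (1.44 to 3.80) and 1.95% of the P3 set (0.895 to 3.67). Outside the members, 8 of 17930 nuclei at E18.5 and 5 of 8827 at P3 had 3 or more, with up to 26 and 18 UMIs. The rule thus missed some Ren1-rich nuclei. Some mouse strains carry a second, near-identical renin gene, Ren2, which is not among the features, so Ren1 levels are uncertain across libraries of different strain background.

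**Figure D3:**
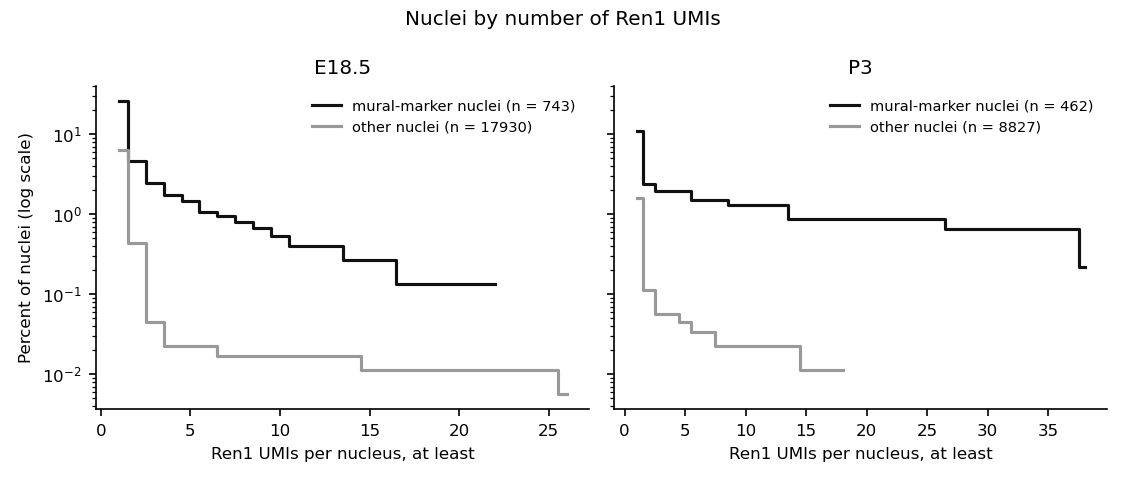
Percent of nuclei (log axis) with at least the number of Ren1 UMIs on the horizontal axis, for mural-marker nuclei (black, n = 743 and 462) and other nuclei (grey, n = 17930 and 8827). The black line falls steeply after 1 UMI at both ages and then runs on to 22 UMIs at E18.5 and 38 at P3.

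The Ren1-rich nuclei had more smooth muscle transcripts than members as a whole, and at P3 also more pericyte and proximal tubule transcripts. The 18 nuclei at E18.5 and 9 at P3 with 3 or more Ren1 UMIs were chosen on Ren1 and are small samples of 60502 and 34722 UMIs. Their Myh11 level was 661 CPM at E18.5 and 1901 CPM (1470 to 2418) at P3, against 113 and 231 over all members, although Myh11 was part of the rule. Myocd had 380 and 605 CPM, and Ctnna3 had 2413 (2038 to 2838) and 2650 CPM. Akr1b7 had 116 CPM (46.5 to 238) and 374 CPM (199 to 640). The contractile list summed to 4925 and 5702 CPM, against 2692 and 3455 over all members. The mesangial list summed to 942 and 1440 CPM, against 2049 and 2970, and the pericyte list to 3901 and 7430 CPM, against 4237 and 4687. Proximal tubule genes summed to 364 and 1469 CPM (1094 to 1931 at P3), against 350 and 648, and their part in the P3 levels was not tested. In thinned nuclei, all 3 members with Akr1b7 at P3 also had Ren1, as did 1 of 6 at E18.5.

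The members split into 3 exclusive subsets by the genes of the rule: any Ren1 UMI (195 nuclei at E18.5, 50 at P3), Myh11 without Ren1 (125 and 183), and Notch3 with neither (423 and 229). The contractile list, which holds none of these genes, summed to 3574 CPM (3410 to 3743) in the Myh11 subset at E18.5 and to 2480 CPM (2401 to 2561) in the Notch3 subset. At P3 the sums were 4381 and 2635 CPM. The pericyte list ran the other way, with 2879 CPM in the Myh11 subset and 5034 in the Notch3 subset at E18.5, and 3413 and 5800 at P3. The Ren1 subset lay between them in both lists at both ages, at 2514 and 3314 CPM for the contractile and 3479 and 4955 CPM for the pericyte list. Its contractile sum at E18.5 overlapped that of the Notch3 subset within counting error. The rule itself bears on these contrasts. Besides Notch3, members of the Notch3 subset had to reach 3 markers through Abcc9, Pdgfrb, Rgs5 and Mcam. Members of the other subsets could also count Myh11 or Ren1. The part of this selection in the list sums was not tested. The ratio of the renin lineage list in the Ren1 subset to that in the Notch3 subset was 0.859 at E18.5 and 0.963 at P3, and other settings moved it to between 1.10 and 1.31 at P3. Most nuclei of the Ren1 subset had a single Ren1 UMI. In the nuclei with 3 or more the list summed to 3355 and 6941 CPM, against 2700 and 3557 in the Notch3 subset. Markers of other cell types also differed between the subsets. Loop and distal tubule genes summed to 335 CPM in the Ren1, 418 in the Myh11 and 155 in the Notch3 subset at E18.5, and to 914, 236 and 395 CPM at P3. Podocyte genes at P3 summed to 140, 439 and 224 CPM, and nephron progenitor genes at E18.5 to 308, 106 and 155 CPM. Their part in the list sums was not tested. Myocd was lowest in the Notch3 subset, at 27.2 and 9.11 CPM, against 84.6 and 128 in the Ren1 subset and 83.9 and 85.7 in the Myh11 subset.

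To see how members vary apart from the rule, they were clustered at each age without the genes of the rule and of all lists. Clusters are described by their leading genes and then by the genes that were left out. There were 8 clusters at E18.5 and 7 at P3. Some clusters went against the mural label. At E18.5 clusters 5 (94 nuclei, led by Esrrg and Slc12a3), 7 (44 nuclei, Eya1 and Nell1) and 8 (14 nuclei, Nebl, Ptpro and Nphs1) had tubule, progenitor or podocyte genes in front. Doublet calls took 58.5%, 56.8% and 85.7% of them. At P3 cluster 4 (67 nuclei, led by Slc12a1 and Pax2) had 64.2% doublet calls. Without these clusters 591 members (3.19%) were left at E18.5 and 395 (4.28%) at P3. With them left out, 252 genes at E18.5 and 275 at P3 were at least 2-fold higher in members than in other nuclei. The contractile list then had 4 of 10 and 8 of 10 genes at least 2-fold higher, with medians of 0.87 and 1.38. The pericyte list had 7 of 8 and 6 of 6, with medians of 1.77 and 1.52, and the remaining pericyte gene at E18.5 was at least 2-fold lower. Of 18 matrix genes, 4 at E18.5 and 9 at P3 then passed 2-fold. Keeping these clusters but setting no upper UMI limit gave 73 genes at P3, with 3 of 8 contractile and 4 of 5 pericyte genes past 2-fold.

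At both ages 1 cluster held more Ren1 than any other. Cluster 6 at E18.5, led by Stac, Serpini1 and Ctnna3, had 74 nuclei (9.96% of members) and 115 of 322 Ren1 UMIs (35.7%), a share that other settings moved to between 19.5% (0 endothelial genes) and 95.7% (thinned). Cluster 6 at P3, led by Ctnna3, Serpini1 and Stac, had 45 nuclei (9.74%) and 146 of 225 Ren1 UMIs (64.9%). The pair shared 11 of their top 20 leading genes (55%). In this cluster Ren1 had 484 CPM (400 to 581) at E18.5, against 45.3 to 171 in the other clusters, and 789 CPM (666 to 928) at P3, against 11.4 to 106. The 106 CPM of cluster 1 came from 43 UMIs, 37 of them in 1 nucleus. Akr1b7 had 50.5 and 113 CPM, against at most 6.66 and 4.15 elsewhere. Notch3 was also highest there, at 581 and 1021 CPM, and so was Abcc9, at 842 and 513. Myh11 had 379 CPM at E18.5, and 578 at P3 where cluster 7 had 870. Of the 5 mesangial markers, Gata3 and Hopx at E18.5 and Gata3 alone at P3 were more than 2-fold above the other members. Gata3 had 206 and 265 CPM and was also raised in the tubule-led clusters, at 168 CPM in cluster 5 at E18.5 and 82.1 in cluster 4 at P3.

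Several lists were highest in the same cluster. The pericyte list summed to 7848 CPM at E18.5 and 10498 at P3, against at most 5947 and 7138 in any other cluster, and the cGMP list to 6113 and 11136 CPM. Prkg1 alone had 4888 and 9639 CPM (9197 to 10097). Trpc6 had 648 CPM (538 to 775) at P3, against 0 to 108 in the others, but 109 at E18.5, where cluster 3 had 194. Ano1 had 509 and 1399 CPM, with 584 in cluster 3 at E18.5. The Notch ligand Jag1 had 219 and 292 CPM, against at most 136 and 121. Hey2 had 75.6 CPM at P3 and at most 4.93 in the others, and Heyl 146 CPM against at most 113. Mef2c had 1423 and 1815 CPM, against at most 639 and 392. Eln had 888 CPM (773 to 1017) at E18.5, against at most 104, and 319 CPM at P3, against at most 194. In contrast Fbln5 and Col1a1 had 70.2 and 130 CPM in this cluster at P3, against 555 and 560 CPM in cluster 1. The 5 endothelial genes summed to 358 and 405 CPM here, above the other clusters. At P3, 367 CPM of these came from Emcn, while Cdh5 and Kdr were at 0.

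A finer clustering at P3 placed the 45 nuclei of cluster 6 in 2 clusters. All 23 nuclei of the first came from cluster 6 and held 58.2% of the Ren1 UMIs, with Ren1 at 1454 CPM and Myh11 at 1088 CPM. The second had 29 nuclei, 22 of them from cluster 6, and held 6.67%, with Notch3 at 776 CPM and Myh11 at 86.2 CPM. A further 18.7% of the Ren1 UMIs lay in a cluster of 41 nuclei led by the globin genes Hba-a2 and Hba-a1, and 37 of these 42 UMIs came from 1 nucleus of cluster 1.

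Other clusters differed in contractile transcripts. Cluster 3 at E18.5 (112 nuclei, led by Nrxn3, Kcnip1 and Palld) and cluster 3 at P3 (83 nuclei, led by Nkain2) shared 10 of 20 leading genes. There Mylk had 990 and 2478 CPM, against 153 to 270 and 299 to 811 in the others. Kcnma1, the pore of the large-conductance potassium channel, had 229 and 792 CPM, while Ebf1 was lowest of all clusters at 759 and 642. The podocyte list summed to 565 CPM in this cluster at P3. Cluster 7 at P3 (29 nuclei, led by Actg2 and Unc13c) had all 6 smooth muscle markers more than 2-fold above the other members. Its Acta2 was 513 CPM, Tagln 232, Myh11 870, Lmod1 135 and Actg2 227. Myocd reached 308 CPM there and Kcnma1 843, Ren1 was 16.2 and Trpc6, Hey2 and Heyl were at 0. At E18.5 no cluster had more than 3 of the 6 markers that far above the rest.

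Cluster 1 at E18.5 (162 nuclei, led by Igf1 and Edil3) and cluster 1 at P3 (97 nuclei) had the next highest sums of the pericyte list after cluster 6. They are not a matched pair, since 2 of their 20 leading genes were shared. The list summed to 5947 and 7138 CPM, of which the stromal and mural factor Ebf1 gave 3492 and 3500. Of the 6 pericyte markers, none at E18.5 and only Rgs5 at P3 was more than 2-fold above the other members, while Abcc9, Kcnj8 and Cspg4 were in cluster 6 at P3. Fhl2 had 670 CPM in the E18.5 and 1191 CPM in the P3 cluster. At P3 this cluster had the most Rgs5, 419 CPM, and the most Fbln5, 555 CPM. It was led by the neutrophil genes S100a9 and S100a8, its erythroid genes summed to 459 CPM against at most 146 in the other clusters, and its doublet calls were 1.03%. The part of free RNA in it was not tested. Cluster 4 at E18.5 (109 nuclei) and cluster 5 at P3 (47 nuclei) had the highest cell cycle sums, 2785 and 3833 CPM against at most 1234 and 909 elsewhere. Ren1 was low in both, at 52.8 and 13.6 CPM.

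**Figure D4:**
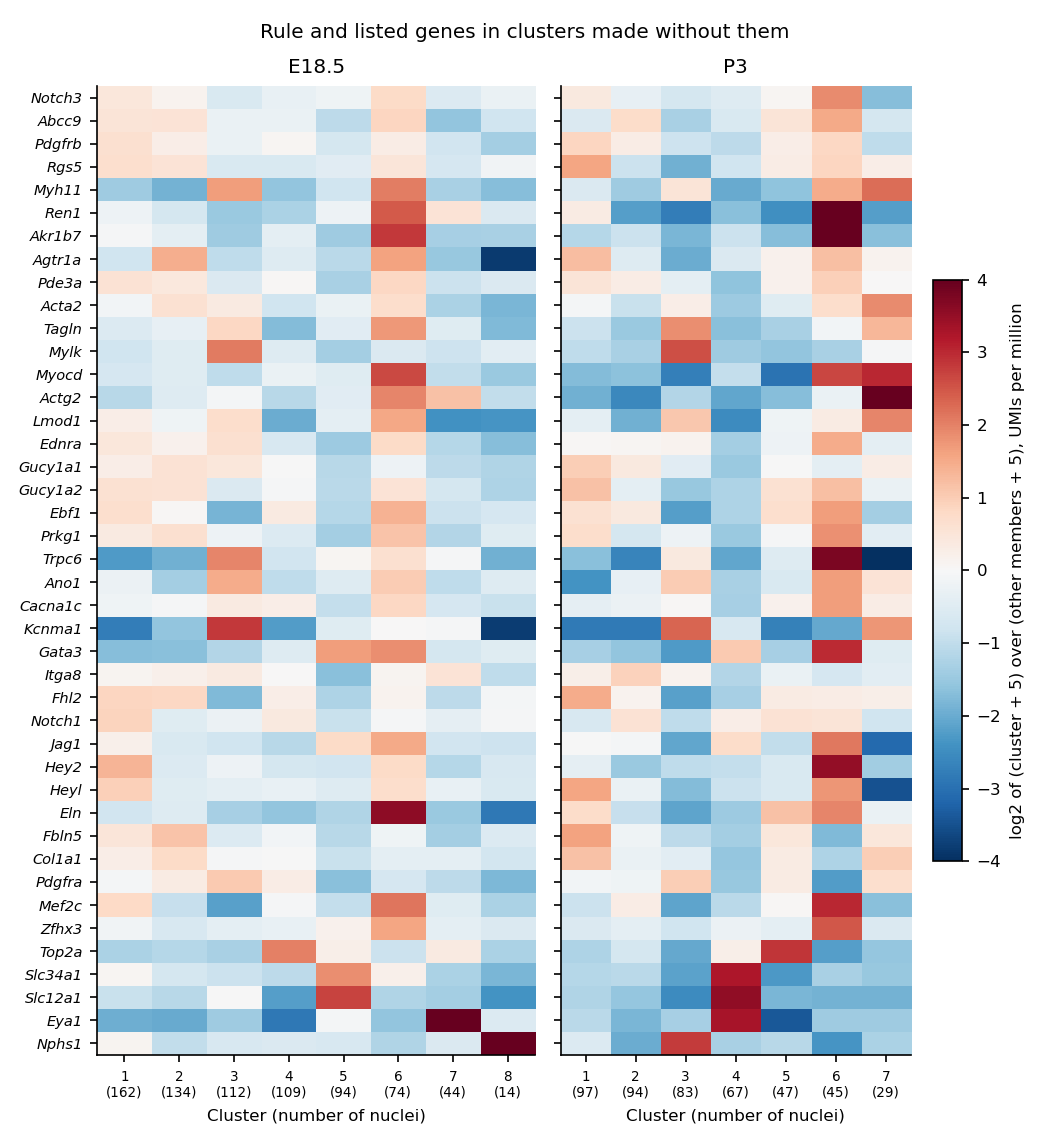
Log2 ratio of each cluster to all other members, after adding 5 CPM (red higher, blue lower), for genes that were kept out of the clustering; columns are clusters with their number of nuclei. Column 6 at both ages is red for Ren1, Akr1b7, Myocd, Jag1, Mef2c and Gata3, column 3 for Mylk and Kcnma1, and column 7 at P3 for Actg2, Acta2 and Lmod1.

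Between the ages, 102 of 4882 genes (2.09%) were at least 2-fold higher at P3 in members and 428 (8.77%) at least 2-fold lower. Other nuclei had 154 of 5155 (2.99%) and 466 (9.04%). The lowest P3 ratios in members were close to those in other nuclei. Rps23, a ribosomal protein gene, had 906 CPM at E18.5 and 165 at P3 in members, and 1065 and 184 in other nuclei. Tpt1 went from 1175 to 221 CPM in members, and from 1377 to 229 in other nuclei, and the globin gene Hbb-bs from 443 to 72.5 and from 530 to 70.2. Of the 10 lowest P3 ratios, Rpl7, Rps23, Tpt1, Ifitm3, Gm10076, Rplp1 and Rps3 had ratios of 0.158 to 0.195 in members and 0.159 to 0.188 in other nuclei.

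All 10 genes with the highest P3 ratios in members also had ratios above 1 in other nuclei, from 1.99 to 11.8. Gm19951 came first, with 9.27 in members and 11.8 in other nuclei. Kcnma1 (chr14:23289431-24014491, minus strand) had 62.4 CPM at E18.5 and 286 at P3 in members, a ratio of 4.58 (3.87 to 5.45), against 1.99 in other nuclei. The genes Lhfpl3, with 4.81 against 2.39, and Cacna2d3, a calcium channel subunit, with 3.27 against 2.05, also had larger ratios in members, as did Unc13c, with 4.43 against 3.26, Ano5, with 4.31 against 3.26, and Sorcs3, with 4.07 against 2.73. When nuclei were thinned, Cacna2d3 went slightly the other way, with a log2 ratio of -0.10. Over the settings the log2 ratio in members ranged from 0.34 to 1.98 for Sorcs3 and from 0.55 to 6.05 for Unc13c. Neither thus stayed above 2-fold throughout. Kcnip1, with 4.77 against 4.42, the potassium channel Kcnd2, with 3.16 against 3.62, and Lars2, with 3.35 against 3.14, had closer ratios in the 2 sets. For Kcnd2 the log2 ratio in members was 0.04 in thinned nuclei, so that its difference with age was gone, while that of Kcnma1 ranged from 1.42 to 3.12 over the settings.

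In the lists, differences with age were few. Of 10 contractile genes compared, Mylk alone passed 2-fold, with 361 CPM at E18.5 and 838 at P3, and the median log2 ratio was 0.37, which ranged from -0.01 with at least 4 markers to 0.54 after thinning. Several contractile and matrix genes below 2-fold had higher P3 ratios in members than in other nuclei. The P3 ratio of Acta2 was 1.33 (1.15 to 1.54) in members and 0.800 in other nuclei, that of Tagln 1.56 and 0.947, and that of Myl9 1.30 and 0.785. Col1a1 had 1.04 and 0.648, Mgp 0.9997 and 0.572, and Dcn 0.952 and 0.533. Of 12 channel genes, Cacna1d and Kcnma1 were at least 2-fold higher at P3. Eln had a ratio of 0.675 (0.573 to 0.794) in members and 1.08 in other nuclei. Of the renin lineage, Adcy5 and Agtr1a were higher at P3, with ratios of 2.21 and 2.09, beside 2.03 and 2.60 in other nuclei. Kcnj8 was the 1 pericyte gene at least 2-fold lower, at 0.385, beside 0.281 in other nuclei. Fbln5, which assembles elastic fibres, was the 1 matrix gene at least 2-fold higher, with 94.0 and 238 CPM. No mesangial, Notch pathway, receptor list, cGMP, transcription factor or cell cycle gene compared passed 2-fold between the ages.

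**Figure D5:**
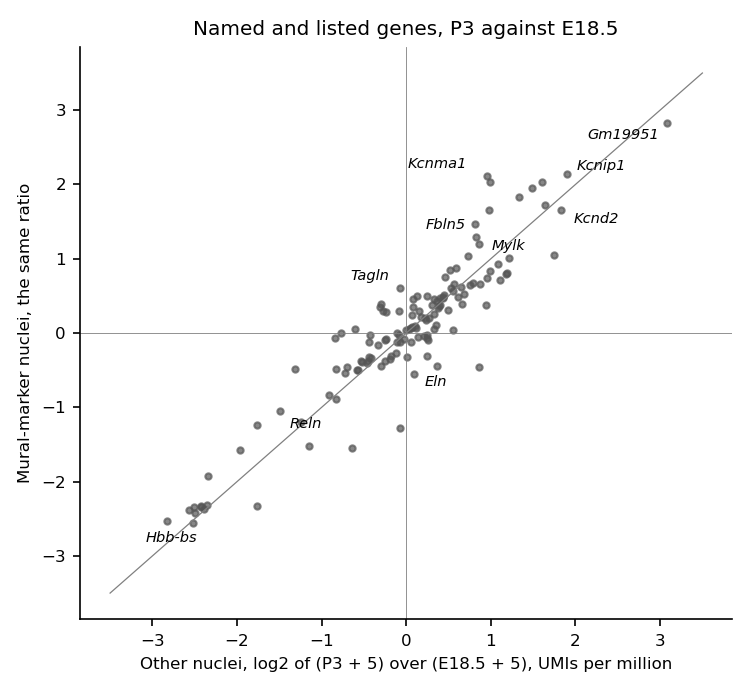
Each point is 1 named or listed gene: log2 ratio of P3 to E18.5, after adding 5 CPM, in other nuclei (horizontal) and mural-marker nuclei (vertical); the grey diagonal marks equal ratios. Most points follow the diagonal, Kcnma1 lies above it (4.58-fold in mural-marker and 1.99-fold in other nuclei) and Eln lies below it.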

How the data were processed

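Nuclei of pooled kidneys were sequenced as 3' gene expression libraries (10x Genomics), 1 for each age. The authors deposited raw UMI counts per gene and barcode, whole numbers without normalization, for 32285 genes. The submitters' processing notes name Cell Ranger 5.0.1 and mm10 for both libraries, while the header of the E18.5 matrix names release 7.0.0. Whether intronic reads were counted was not given in the sources used here, and a difference in this setting would shift levels between the ages.

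Members and gene lists were chosen with earlier results of these data known. UMIs were summed over each set of nuclei and scaled to CPM. Intervals are 95% exact Poisson, Clopper-Pearson or, for ratios, conditional binomial intervals, and cover counting error only. Genes of at least 50 CPM in either set were called at 2-fold after adding 5 CPM. The named genes were all listed genes, the 10 highest ratios of mural-marker to other nuclei, and the 10 highest and 10 lowest P3 ratios, among genes of at least 100 CPM. The comparison code was tested at each age on Poisson counts simulated from the levels of other nuclei (4759 and 4401 genes of at least 50 CPM there). The simulation held no spread between nuclei, doublets or free RNA, so it gives no rate of false calls for the real data. All genes planted at 4-fold and 0.25-fold were called and none of the unchanged genes was, but of genes planted at 2-fold 8% were called at either age, and of those planted at 0.5-fold 52% and 46%. Members were clustered with scanpy 1.11.5 (2000 variable genes, 30 principal components, 15 neighbours, Leiden resolution 0.5). Doublets were scored with scrublet over 20978 and 10861 barcodes and kept, and 18.9% and 18.8% were called. Coordinates are from GENCODE M21, which held 32158 of the 32285 gene identifiers. Other settings tried were at least 4 markers, 0 endothelial genes, Mcam left out, no upper UMI limit, thinning to 1000 UMIs, doublet calls removed, a mean over nuclei, a minimum of 20 CPM and 1 CPM added. After the data were seen, leaving out epithelial-led clusters, Leiden resolution 1, list counts and medians under these settings, and a stricter stromal set were added, the last because the stromal gate chosen at first held 76.4% and 76.8% of the nuclei. Some genes that the rule for naming takes in are not reported here.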

Additional observations from a re-analysis of the deposited data

Results flagged for a closer look

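A listed gene is given here when its ratio of mural-marker to other nuclei lay on opposite sides of 1 at the 2 ages with intervals that exclude 1. With 1 library per age the difference between the ages was not tested. Kcnma1 had a ratio of 0.800 at E18.5 and 1.84 at P3. Itpr1, an intracellular calcium release channel, had 1.09 and 0.941. Anln, an actin-binding protein of dividing cells, had 0.837 and 1.23. Hba-a2, a globin gene, had 0.847 and 1.29. Among barcodes above the upper UMI limit, 259 of 2307 at E18.5 and 213 of 1573 at P3 met the marker rule. The comparisons above use them only where no upper limit was set.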

How the results depend on the processing

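No paired analysis was possible because each age has 1 library, and no library could be left out. Where a value moved, the cause was not tested. The share of mural-marker nuclei at E18.5 and P3 was 1.38% and 1.60% with at least 4 markers, 3.08% and 3.69% with 0 endothelial genes, 3.54% and 4.35% without Mcam, 4.78% and 6.21% with no upper UMI limit, 0.594% and 0.409% after thinning, and 3.19% and 4.28% without the epithelial-led clusters. The count of genes at least 2-fold higher than in other nuclei became 252 at E18.5 after thinning and also without the epithelial-led clusters, and at P3 73 with no upper UMI limit and 337 after thinning. Between the ages, 394 genes were higher and 781 lower at P3 after thinning, when 111 and 38 members were left, and 162 and 701 at a minimum of 20 CPM. The contractile ratio of the Myh11 to the Notch3 subset, 1.44 at E18.5 and 1.66 at P3, stayed above 1 in each setting run. It moved at E18.5 to 1.33 with at least 4 markers, 1.29 with no upper limit and 1.53 after thinning, and at P3 to 1.81 and 1.58 under the latter 2. The renin lineage ratio of the Ren1 to the Notch3 subset moved at E18.5 to 0.971 with at least 4 markers and 0.948 after thinning, and at P3 to 1.13, 1.31 and, as a mean over nuclei, 1.10. The share of Ren1 UMIs in the Ctnna3-led cluster at E18.5 was 53.6% with at least 4 markers, 19.5% with 0 endothelial genes, 95.7% after thinning, 42.2% without doublet calls and 51.0% without the epithelial-led clusters. At P3 it was 58.2% at resolution 1 and 52.1% with no upper limit, and thinned members formed a single cluster. Among named genes at least 2-fold apart between the ages, the log2 P3 ratio of Cacna2d3 turned to -0.10 after thinning. Smaller P3 ratios changed sign as well, with ranges of -0.28 to 1.08 for Dgkb, -0.15 to 1.34 for Ctnna3, -0.36 to 1.18 for Dkk2 and -0.62 to 0.0070 for Carmn. That of Kcnd2 was 0.04 after thinning, that of Unc13c ranged from 0.55 to 6.05 and that of Sorcs3 from 0.34 to 1.98. Of 297 list medians recomputed, 196 stayed within the counting interval of their middle gene and 101 moved.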
